A study of Mus musculus with 6 samples.

Results

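The AP-1 and NR4A immediate early factors are transcription factors that many cells switch on within minutes of a stimulus, and they were followed here in mouse tendon cells given medium conditioned by sensory ganglia. The 10 genes were chosen by name, as Fos, Fosb, Fosl1 and Fosl2 of the FOS family, Jun, Junb and Jund of the JUN family, Atf3, and Nr4a1 and Nr4a2, out of 24413 genes in the deposited data. All 10 were present, each once. The choice was made with earlier results of these data known. RNA of cells held for 24 h in dorsal root ganglion (DRG) conditioned medium was sequenced in bulk in 3 libraries, beside 3 libraries of control cells held for 24 h in medium with 1% FBS. Both groups carried the genotype Tppp3ECE/+;R26RtdT-CreERT2;Scx-GFP, came from Achilles tendons of 12-week-old male mice (3 in all) and are labelled as Tppp3+ cells, sorted by flow cytometry with gates for GFP and tdT. The conditioned medium came from lumbar ganglia of 3 male C57BL/6J mice aged 12 weeks. The ganglion cells were grown for 4 to 5 days with 5-fluoro-2-deoxyuridine and uridine at 20 µM each, then moved to medium with 1% FBS that was harvested daily and filtered at 0.22 µm. Medium conditioned by another cell type was not analysed here, so factors of ganglion cells and any other effect of used medium cannot be told apart. The submitters call the libraries biological replicates, but no label links a library to an animal, so p-values measure the spread between libraries.

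AP-1 is a dimer of basic leucine zipper proteins, in which a JUN protein pairs with itself or with a FOS or ATF protein and binds DNA. FOS proteins cannot pair with themselves and need a JUN partner. The NR4A proteins are orphan nuclear receptors that act without a known natural ligand needed for activity, and Nr4a1 is induced with the FOS and EGR genes by growth factors, calcium and cyclic AMP. The messages of most of these genes are short-lived after a stimulus, whereas those of Fosl1 and Fosl2 appear later and last longer.

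Values are FPKM, fragment counts scaled to gene length and to the depth of the library. They are per length, so levels of different genes can be set side by side only as far as the lengths used hold. The libraries held 18774552 to 26061245 fragments as recovered from the FPKM steps. The mitochondrially encoded genes took 3.74% to 4.198% of summed FPKM in conditioned libraries and 4.12% to 4.86% in control libraries. Of 9 tendon markers 8 were tested, and 5 were lower, among them Col1a1, against 2.49% of all genes tested. The other 3 did not pass. In 1 tested marker every conditioned library lay above every control library, and in 6 every one lay below (14.3% and 11.6% of all genes tested). The summed level of the 9 markers was 3577 to 3677 FPKM in conditioned libraries and 4525 to 4648 FPKM in control libraries. Tppp3 itself had 0.908 ± 0.184 FPKM in conditioned cells and 0.903 ± 0.166 FPKM in control cells (SD, n = 3 each) and was too low to be tested. Of 16 markers of sensory neurons, 12 were analysed here (without Rbfox3, Scn10a, Snap25 and Tac1), 0 reached the level needed for a test, and the 12 had a summed level of 2.02 to 2.5015 FPKM in conditioned libraries and 2.72 to 2.96 FPKM in control libraries. The 10 glial markers summed to 12.9 to 15.4 FPKM in conditioned and 16.8 to 18.7 FPKM in control libraries, of which Ncam1 held most and was the 1 called (lower), while Sox10 did not exceed 0.0279 FPKM in any library. Of 10 macrophage markers, 8 were analysed here and summed to 6.69 to 7.02 FPKM in conditioned and 6.71 to 7.92 FPKM in control libraries. Among them Cd68, Lyz2 and Cd14 reached the level needed for a test and did not pass, and Ptprc was at or below 0.0093 FPKM. Of 8 endothelial markers, 6 were analysed here and summed to 4.43 to 4.87 FPKM in conditioned and 5.76 to 6.55 FPKM in control libraries, nearly all from Tek, which was called lower. Of 8 muscle markers, 3 (Acta1, Des and Tnnt3) were analysed here, without Myod1, Myog or Pax7, and summed to 42.6 to 45.7 FPKM in conditioned and 42.4 to 46.1 FPKM in control libraries. The calls of Tek and Ncam1 were lost in some alternative settings of the limma fit described below, with adjusted p up to 0.0838 and 0.106. Some of the tendon calls were lost as well, while those of Col1a1 and Fmod held in all 15 settings. The part of all these cell type markers in the results below was not tested.

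Differences were tested with limma on log2(FPKM + 1) over the 11678 genes that averaged 1 FPKM or more, with Benjamini-Hochberg adjustment over all of them and a threshold of 0.05. Log2 fold changes are conditioned minus control on that scale, which understates changes of low genes. Across all genes 6.53% were called, with 472 higher (4.04%) and 291 lower (2.49%), a split that became 376 higher and 419 lower when libraries were scaled to their upper quartiles. Of the 10 factors 8 were tested and 3 were called. Fosl2 rose, Fos and Nr4a1 fell, and Fosl1, Jun, Junb, Jund and Nr4a2 did not pass. Fosb and Atf3 lay below the level filter. In bulk RNA, fewer expressing cells and less RNA per cell cannot be told apart.

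**Figure D1:**
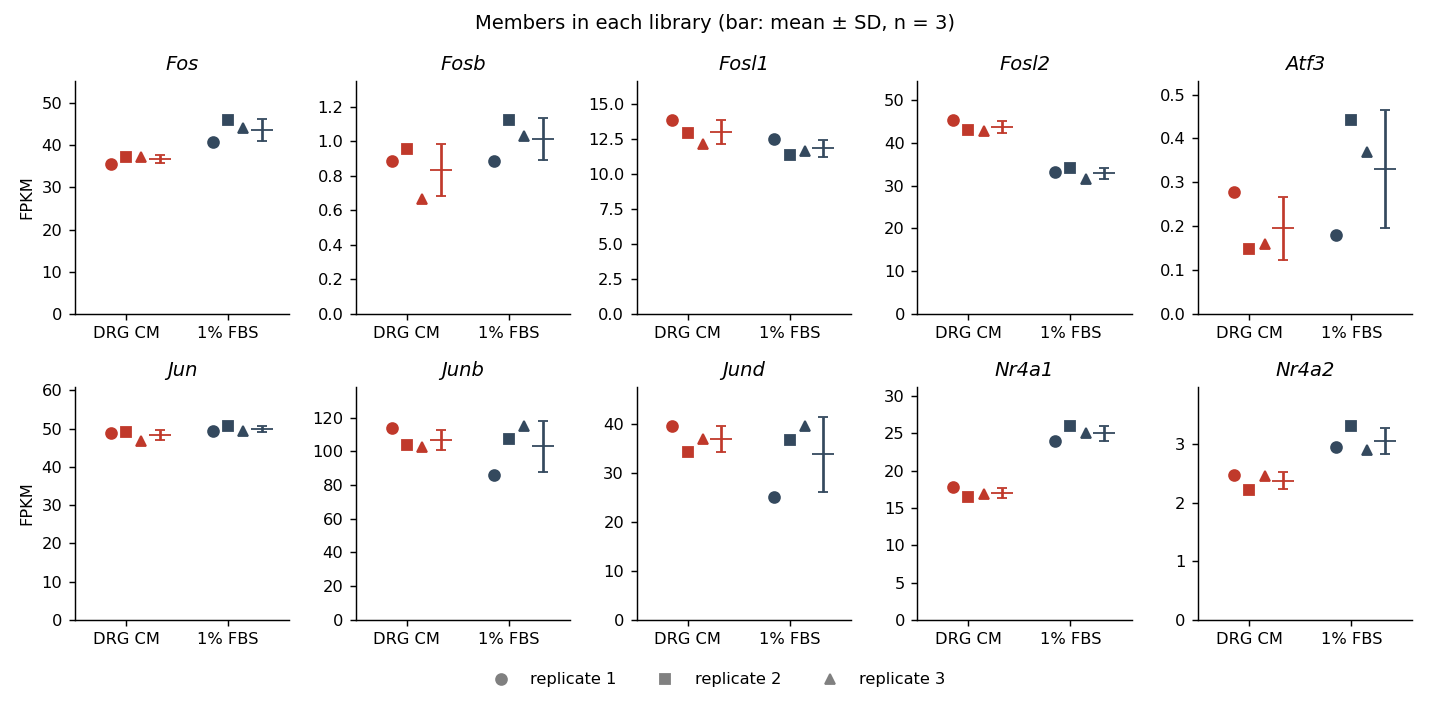
FPKM of the 10 factors (vertical axes, each from 0) in the 3 libraries with DRG conditioned medium, in red, and the 3 control libraries with 1% FBS, in dark blue, with symbols for the replicate and bars for mean ± SD. Fosl2 is higher in all 3 conditioned libraries, and Fos, Nr4a1, Nr4a2 and, by a small margin, Jun are lower in all 3. Control replicate 1 is the lowest library for Junb and Jund.

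Immediate early promoters are known for cyclic AMP response elements (CRE), serum response elements and a TATA box close to the start. The 3 factors that were called differ in these letters, and a link of the letters to the changes was not tested. The 250 bases before the RefSeq start of each called factor are shown so that they can be compared (RefSeq, GRCm38.p6, the assembly also named mm10, gene strand, 5′ to 3′). Capitals mark the CRE core TGACG, or CGTCA where it lies on the opposite strand, and the TATA box TATAAA. The windows are chr15:101266596-101266845 for Nr4a1, chr12:85473640-85473889 for Fos and chr5:32136222-32136471 for Fosl2, all on the plus strand. Those of Nr4a1 and Fosl2 precede a RefSeq start inside the gene's annotated span, as does that of Atf3 below.
Nr4a1: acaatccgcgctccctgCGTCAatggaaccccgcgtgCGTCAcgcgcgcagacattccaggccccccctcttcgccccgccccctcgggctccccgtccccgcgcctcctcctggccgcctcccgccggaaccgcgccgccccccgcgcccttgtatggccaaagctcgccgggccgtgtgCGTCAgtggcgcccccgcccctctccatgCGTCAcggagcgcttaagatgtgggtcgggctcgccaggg
Fos: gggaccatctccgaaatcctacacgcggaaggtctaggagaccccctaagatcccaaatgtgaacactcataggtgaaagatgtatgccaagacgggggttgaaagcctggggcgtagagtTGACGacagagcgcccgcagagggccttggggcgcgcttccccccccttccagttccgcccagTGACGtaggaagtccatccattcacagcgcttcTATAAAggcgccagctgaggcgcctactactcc
Fosl2: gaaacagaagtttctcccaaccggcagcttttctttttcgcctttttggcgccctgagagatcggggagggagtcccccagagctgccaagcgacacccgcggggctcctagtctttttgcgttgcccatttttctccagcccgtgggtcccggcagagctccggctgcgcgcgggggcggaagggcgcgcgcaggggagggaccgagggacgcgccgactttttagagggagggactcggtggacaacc

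Windows of 300 bases, 250 before to 50 after the start, were found for 9 of the 10 factors, and each motif was searched on both strands. The core TGACG was present in 6 of these 9, against 20.8% of 32851 mouse windows. Nr4a1 held 4 of them, all on the opposite strand, the farthest from -233 and the nearest up to -36. Fos held 2, from -129 and from -66, and a TATA box from -33. Nr4a2 also held 4, a number reached by 0.231% of all windows. Fosb, Atf3 and Junb held 1 each. The windows of Fosl2, Jun and Jund held none of these letters. The Jund window (chr8:70697489-70697738 before the start) lies upstream of the annotated gene, which begins at 70698949, so it does not cover the bases next to that start. The full CRE TGACGTCA (in 1.79% of windows), the AP-1 site TGACTCA (5.20%) and the CArG box of the serum response element (1.63%) were in no window of the 9. Bases more than 250 before the start were not searched, so a gene may hold such elements farther upstream. The ETS core CCGGAA (14.9%) was in the window of Nr4a1. TATAAA (13.6%) was also found in Nr4a2, on the opposite strand, and in Junb at the start itself. The full CRE contains the core, so these searches overlap.

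**Figure D2:**
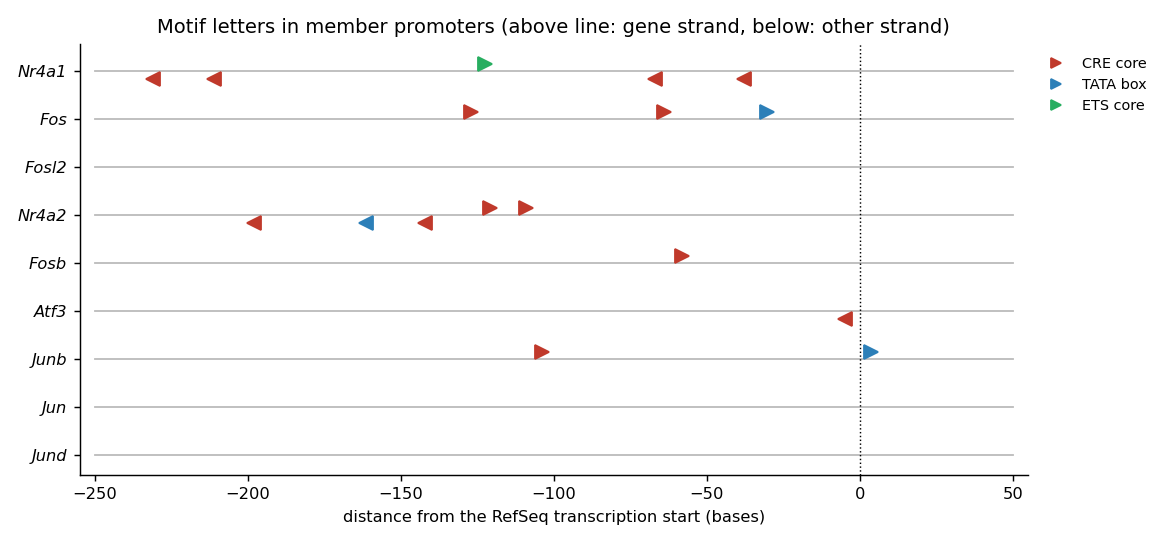
Positions of the CRE core, the TATA box and the ETS core in the promoter windows of 9 factors, as distance from the RefSeq start in bases, with symbols above the line on the gene strand and below it on the opposite strand. Nr4a1 and Nr4a2 hold 4 CRE cores each, Fos 2, and Fosl2, Jun and Jund none.

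Fosl2 encodes FRA2, a FOS family protein without the strong activation domain of FOS, known for roles in matrix and bone biology. It had 45.4, 42.9 and 42.8 FPKM in conditioned libraries, against 33.1, 34.1 and 31.5 FPKM in control libraries. Every conditioned library lay above every control library. The means were 43.7 ± 1.46 FPKM in conditioned and 32.9 ± 1.30 FPKM in control cells (SD, n = 3 each), 32.8% higher with conditioned medium. The log2 fold change was 0.40 ± 0.04 SE with an adjusted p of 0.00115 in limma, and it was called in all 15 alternative settings. The gene spans chromosome 5 from 32135801 to 32157842 on the plus strand (mm10) and was the most deeply covered member, with 27115 fragments in conditioned and 22261 in control libraries.

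Fos, the founding member of the family and the textbook immediate early gene, moved the other way. It had 35.5, 37.4 and 37.3 FPKM in conditioned libraries, against 40.8, 46.1 and 44.1 FPKM in control libraries. The groups did not overlap, and the control libraries were the more spread. The means were 36.7 ± 1.04 FPKM in conditioned and 43.7 ± 2.68 FPKM in control cells (SD, n = 3 each), a change of -15.9% with conditioned medium. On the log2 scale the change was -0.24 ± 0.05 (SE), and limma gave an adjusted p of 0.0276. The Fos call was lost in 8 of 15 alternative settings, where the adjusted p reached 0.115, among them 5 of the 6 fits that left out a library and the fit with a replicate block (adjusted p = 0.0517). The log2 fold change stayed between -0.29 and -0.20 throughout. Fos lies on chromosome 12 from 85473890 to 85477273 (plus strand).

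Fosl1, which encodes FRA1 and is itself a target of AP-1, had 13.8, 12.9 and 12.1 FPKM in conditioned libraries, against 12.5, 11.3 and 11.6 FPKM in control libraries. The groups overlapped, since control replicate 1 exceeded conditioned replicate 3. Its log2 fold change of 0.12 ± 0.06 SE did not pass (adjusted p = 0.304 in limma), and it was 0.078 without conditioned replicate 1 and 0.080 with the GC and length trend removed. Fosl1 is on chromosome 19 (5447547 to 5455946, plus strand) and its exons overlap those of Ccdc85b on the other strand. The strand setting of the authors' counting is not given in the sources used here, so reads of such pairs cannot be told apart.

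Fosb, which responds to neuronal and mechanical activity, stayed near the limit of the filter with 0.884, 0.954 and 0.662 FPKM in conditioned libraries and 0.883, 1.12 and 1.03 FPKM in control libraries. These values overlap and rest on 329 fragments in conditioned and 442 in control libraries. Atf3, a stress-induced partner of JUN proteins that is well known as a marker of injured sensory neurons, had 0.277, 0.148 and 0.158 FPKM in conditioned libraries and 0.180, 0.442 and 0.368 FPKM in control libraries. That is 27 fragments in conditioned and 50 in control libraries, in overlapping groups. With the filter removed, the adjusted p in limma was 0.633 for Fosb and 0.621 for Atf3.

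Jun, Junb and Jund, the partners without which FOS proteins do not bind, did not pass, and Junb and Jun had the highest levels of the 10 factors. Jun had 48.8, 49.1 and 46.7 FPKM in conditioned libraries, against 49.4, 50.7 and 49.4 FPKM in control libraries. The groups just failed to overlap, with a difference of -3.23% between the means, and the log2 fold change of -0.05 ± 0.04 SE had an adjusted p of 0.531 in limma. That value was -0.025 without conditioned replicate 3, -0.083 after quantile normalization and -0.082 after upper quartile scaling. Junb, which is induced by cytokines and growth factors and often opposes Jun, had 114, 104 and 102 FPKM in conditioned libraries, against 86.0, 108 and 115 FPKM in control libraries. Jund, the JUN protein of resting cells, had 39.5, 34.3 and 36.8 FPKM in conditioned libraries, against 25.0, 36.7 and 39.5 FPKM in control libraries. For both genes control replicate 1 alone lay below all other libraries, and the groups overlapped. Their log2 fold changes were 0.06 ± 0.11 SE for Junb and 0.15 ± 0.18 SE for Jund (adjusted p = 0.830 and 0.737 in limma), and without control replicate 1 they were -0.062 and -0.048.

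Junb and Jund are rich in G and C, at 62.6% and 67.1% GC in their longest annotated transcripts. Over the tested genes, control replicate 1 had a median deviation from the gene mean of -0.0549 (log2) among genes of 55.5% GC or more and of 0.0412 among genes of 43.9% GC or less. Removing each library's trend in GC content and length, a setting added after these values were seen, left log2 fold changes of 0.04 for Junb and 0.13 for Jund. Junb (chromosome 8, 84974484 to 84978718, minus strand) shares exonic sequence with Prdx2, Jund (chromosome 8, 70698949 to 70700616, plus strand) with Gm11175 and Jun (chromosome 4, 95049034 to 95052222, minus strand) with Junos, each on the opposite strand.

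Nr4a1, also called NUR77, had the largest change of the tested members on the log2(FPKM + 1) scale. It had 17.8, 16.5 and 16.8 FPKM in conditioned libraries, against 23.9, 26.0 and 25.1 FPKM in control libraries. The conditioned libraries were all below the control libraries, and the gap between the groups was wider than the range within either. The means were 17.0 ± 0.671 FPKM in conditioned and 25.0 ± 1.04 FPKM in control cells (SD, n = 3 each), a change of -32.0% with conditioned medium. The log2 fold change was -0.53 ± 0.05 SE with an adjusted p of 0.000393 in limma, and the call was kept in all 15 alternative settings. Nr4a1 lies on chromosome 15 from 101254269 to 101274795 (plus strand).

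Nr4a2, or NURR1, the NR4A receptor best known from dopamine neurons, had 2.47, 2.21 and 2.46 FPKM in conditioned libraries, against 2.95, 3.32 and 2.91 FPKM in control libraries. The groups did not overlap, with means that differed by -22.2%, but the log2 fold change of -0.26 ± 0.07 SE did not pass (adjusted p = 0.0638 in limma). It passed in 3 settings, namely upper quartile scaling (adjusted p = 0.0450), voom on recovered fragments (0.0390) and removal of the GC and length trend (0.0441). Nr4a3, the remaining NR4A receptor and not one of the 10, was barely detected, at 10, 10 and 4 fragments in conditioned libraries and 33, 14 and 21 fragments in control libraries. Nr4a2 is on chromosome 2 (57106830 to 57124003, minus strand).

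Of the 8 tested factors, 4 had conditioned libraries that were all below the control libraries, against 11.6% of all genes tested, and 1 had them all above, against 14.3%. These were Fos, Jun, Nr4a1 and Nr4a2 below and Fosl2 above. The factors, and the lists below, were chosen with earlier results of these data known. Counts set beside the share of all genes therefore describe them and do not test them as a set.

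**Figure D3:**
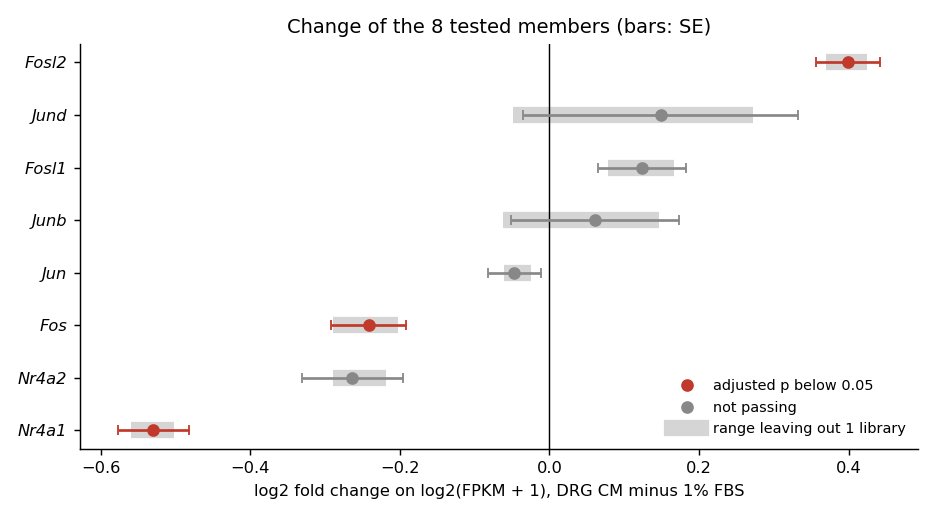
Log2 fold change (conditioned minus control, horizontal axis) of the 8 tested factors with its SE, red where the adjusted p was below 0.05 in limma, and the range when each library was left out in turn as a grey band. Fosl2 at 0.40 and Nr4a1 at -0.53 are far from 0 compared with their bands, and the bands of Junb and Jund cross 0.

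With the opposite changes of Fosl2 and Fos, the FOS gene with the higher FPKM differed between the groups. The Fos call was lost in 8 of 15 alternative settings, as given above. Fosl2 made up 47.5%, 45.6% and 46.1% of the summed FPKM of the FOS family in conditioned libraries, against 37.9%, 36.8% and 35.7% in control libraries. Fos made up 37.2%, 39.7% and 40.2% in conditioned libraries, against 46.7%, 49.8% and 49.99% in control libraries. In FPKM, Fosl2 was thus ahead of Fos in each conditioned library and behind it in each control library. This order rests on the gene lengths used, 9680 bases for Fosl2 and 2352 for Fos. In fragments, not scaled to length, Fosl2 was ahead in both groups, with 27115 against 5534 in conditioned and 22261 against 7166 in control libraries. The difference between the groups in the log2 ratio of these genes does not depend on the lengths. The log2 ratio of the Fosl2 level to the Fos level averaged 0.25 ± 0.09 in conditioned and -0.41 ± 0.10 in control libraries (SD, n = 3 each). The difference of 0.66 gave an exact two-sided permutation p of 0.1, the smallest that 3 against 3 libraries can give. Fosl2 alone and Fos alone already separated the groups, in opposite directions, so the ratio had to separate them too. Its p is therefore no further test. The share of Fosl1 averaged 13.7% ± 0.712 in conditioned and 13.2% ± 1.05 in control libraries. That of Fosb averaged 0.883% ± 0.155 in conditioned and 1.13% ± 0.106 in control libraries.

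The summed FOS level moved less than its composition. It was 95.7, 94.1 and 92.9 FPKM in conditioned libraries, against 87.3, 92.6 and 88.3 FPKM in control libraries, without overlap (exact permutation p = 0.1, two-sided). The summed JUN level was 202, 187 and 186 FPKM in conditioned libraries, against 160.4, 195 and 204 FPKM in control libraries, and overlapped (exact permutation p = 0.9). Its difference of 5.33 FPKM turned to -7.72 FPKM without control replicate 1. In FPKM the JUN sum thus exceeded the FOS sum, with a FOS to JUN ratio of 0.492 ± 0.0161 in conditioned and 0.484 ± 0.0562 in control libraries. The NR4A sum, with Nr4a3, was 20.3, 18.8 and 19.3 FPKM in conditioned libraries, against 27.1, 29.4 and 28.2 FPKM in control libraries (exact permutation p = 0.1). Nr4a1, Nr4a2 and Nr4a3 were each lower without overlap, so the p of their sum was fixed by the single genes. Nr4a1 held 87.4% ± 0.300 of the NR4A sum in conditioned and 88.6% ± 0.433 in control libraries.

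**Figure D4:**
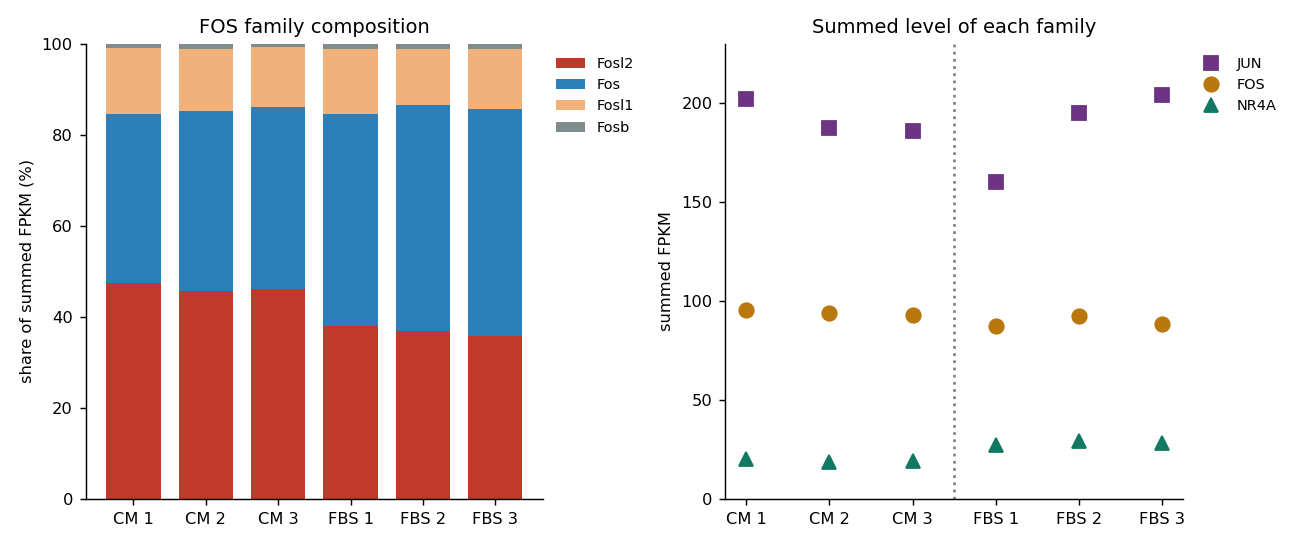
Left, share of each FOS family gene in the summed FPKM of the family (percent) in each library, and right, summed FPKM of the JUN, FOS and NR4A families, with the 3 conditioned libraries (CM) left of the 3 control libraries (FBS). Fosl2 takes 45.6% to 47.5% of the FOS sum in conditioned and 35.7% to 37.9% in control libraries, and the NR4A sum is lower in every conditioned library.

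In order of mean level, conditioned cells had Junb (107 FPKM), Jun (48.2), Fosl2 (43.7), Jund (36.9), Fos (36.7), Nr4a1 (17.0), Fosl1 (12.95), Nr4a2 (2.38), Fosb (0.833) and Atf3 (0.195). Control cells had Junb (103 FPKM), Jun (49.8), Fos (43.7), Jund (33.7), Fosl2 (32.9), Nr4a1 (25.0), Fosl1 (11.8), Nr4a2 (3.06), Fosb (1.01) and Atf3 (0.330). Neighbours in these orders were separate in all 3 libraries of the group, with the exceptions of Jund and Fos in conditioned cells and Jund and Fosl2 in control cells. The exchange of Fos and Fosl2 on either side of Jund was the only difference between the orders. Both orders rest on the gene lengths used for FPKM.

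Other immediate early genes moved in both directions. Of 39 listed, 36 were tested, 8 were lower, 3 higher and 25 did not pass, against 2.49% lower and 4.04% higher among all genes tested, and the list median was -0.06 against 0.01 for all tested genes. The EGR zinc finger factors, induced with Fos by the same stimuli, gave 3 of the 8 lower genes. Egr3 had 3.20 ± 0.339 FPKM in conditioned and 6.27 ± 0.821 FPKM in control cells (SD, n = 3 each). Its change was -0.79 ± 0.09 (SE) on the log2 scale, with an adjusted p of 0.00213 in limma. Egr2 had 9.73 ± 0.471 FPKM in conditioned and 13.5 ± 0.245 FPKM in control cells (log2 fold change -0.43, adjusted p = 0.00125 in limma). Egr4, the EGR gene left, was too low to be tested.

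The Krüppel-like factors Klf10, a TGF-beta early gene, and Klf2, a shear-responsive factor, fell by 0.37 and 0.29 on the log2 scale, and the stress kinase Plk3 fell by 0.37. The genes that rose were Nfil3, a bZIP repressor of the circadian system (log2 fold change 0.44, 14.9 ± 0.528 FPKM in conditioned and 10.7 ± 0.472 FPKM in control cells), Gadd45b, a stress sensor upstream of p38 and JNK (0.31), and Sgk1, a kinase induced by serum and glucocorticoid (0.29). Of the 11 calls, 5 held in every setting that tested them, 3 of them lower, namely Egr2, Egr3, Nfil3, Sgk1 and Rhob, a small GTPase named here after its values were seen. The calls of Klf10, Klf2, Plk3 and Gadd45b were lost in some settings, with adjusted p up to 0.0668, 0.151, 0.0988 and 0.0721.

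**Figure D5:**
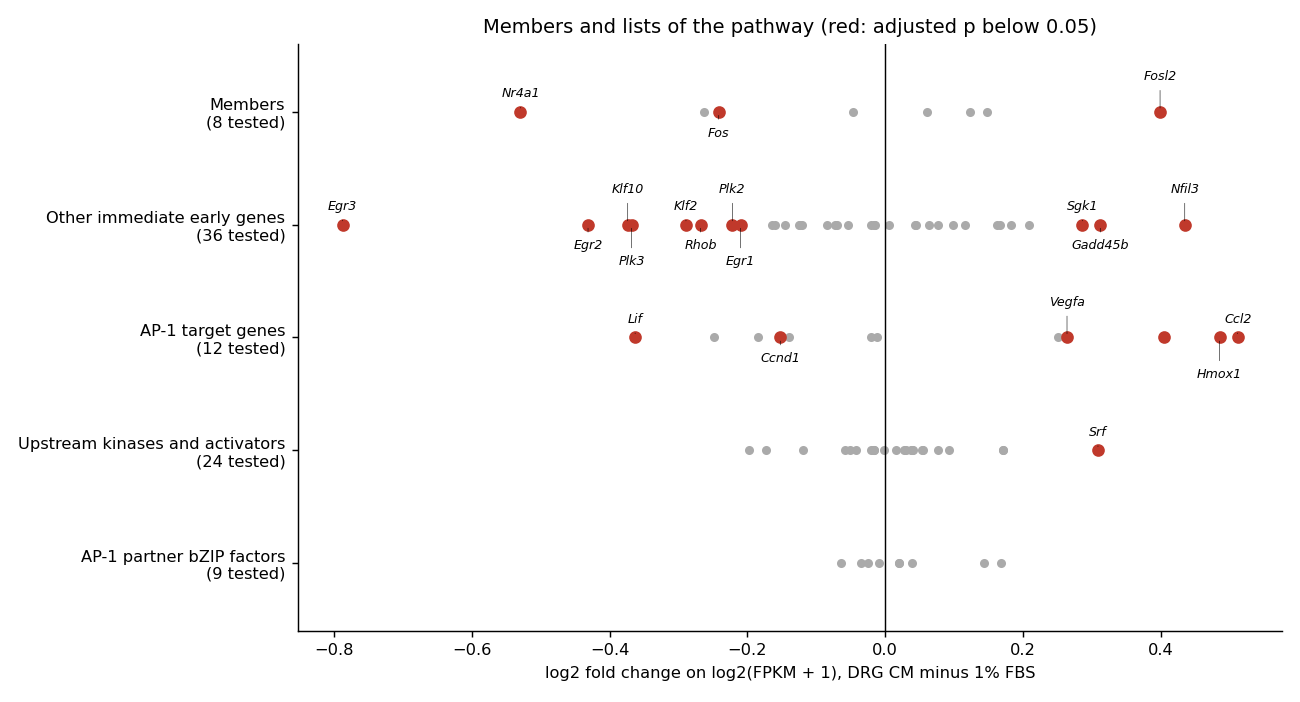
Log2 fold change (conditioned minus control, horizontal axis) of each tested gene among the factors and 4 lists of related genes, red where the adjusted p was below 0.05 in limma, with names beside the genes the text reports and other called immediate early genes. Immediate early genes include called genes on both sides of 0, from Egr3 at -0.79 to Nfil3 at 0.44. Upstream activators show 1 called gene, Srf, and the bZIP partners 0, against 6.53% called among all genes tested.

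Upstream of the factors, 24 of 26 listed kinases and activators were tested, 1 was higher, 0 were lower (1 by voom, and 1 at an unadjusted p below 0.05 in limma) and 23 did not pass, with a median log2 fold change of 0.02. Among all genes tested 4.04% were higher and 2.49% lower, and 1 of 24 is near the first share. The gene called was Srf, the serum response factor that binds the CArG box, with 37.1 ± 2.63 FPKM in conditioned and 29.7 ± 1.59 FPKM in control cells (log2 fold change 0.31 ± 0.06 SE, adjusted p = 0.0203 in limma). Its call was lost in some settings, with an adjusted p of up to 0.0976. Mapk3, which encodes the MAP kinase ERK1 and can phosphorylate the ternary complex factors at these promoters, had 73.6 ± 1.73 FPKM in conditioned and 69.8 ± 4.61 FPKM in control cells. It did not pass (adjusted p = 0.474 in limma). This is a message level and does not measure kinase activity.

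Of 12 listed bZIP partners 9 were tested, and 0 passed in limma (0 by voom, and 1, Maf, at an unadjusted p below 0.05). Among all genes tested 6.53% were called, and 0 of 9 is near that share. Atf4, the integrated stress response factor, had 68.3 ± 2.43 FPKM in conditioned and 66.5 ± 3.05 FPKM in control cells, and Jdp2, a repressor that pairs with JUN, had 20.3 ± 1.11 FPKM in conditioned and 20.8 ± 0.972 FPKM in control cells. Mafk had 10.9 ± 0.0416 FPKM in conditioned and 10.8 ± 0.968 FPKM in control cells. Rxra, the retinoid X receptor with which Nr4a1 and Nr4a2 can pair, had 21.9 ± 0.119 FPKM in conditioned and 19.7 ± 0.285 FPKM in control cells, without overlap, and did not pass (log2 fold change 0.14, adjusted p = 0.0571 in limma). In the list of Nr4a3 and the retinoid X receptors, 1 gene was called higher by voom and 1 with a filter at 5 FPKM. Rxrb had 10.7 ± 0.793 FPKM in conditioned and 10.6 ± 1.26 FPKM in control cells.

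Genes known for AP-1 sites in their control regions did not move one way. Of 16 listed 12 were tested, 4 were higher, 2 lower and 6 did not pass, against 4.04% higher and 2.49% lower among all genes tested, with a median log2 fold change of -0.02. Among the genes that rose were the chemokine Ccl2 (log2 fold change 0.51), the heme oxygenase Hmox1 (0.49) and the vascular growth factor Vegfa (0.26). Ccl2 had 66.7 ± 1.13 FPKM in conditioned and 46.5 ± 2.80 FPKM in control cells. Lif, a cytokine of the IL-6 family, fell by 0.36 and the cyclin Ccnd1 fell by 0.15, and these calls were lost in some settings with adjusted p up to 0.0659 and 0.157, as was that of Vegfa (up to 0.0791). All of these genes answer to other factors as well.

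The genes most like each called factor were found by the smallest Euclidean distance between centred log2(FPKM + 1) values over the 6 libraries, among 7088 genes that averaged 5 FPKM or more. For Fos the nearest gene was Egr1, at a distance of 0.0613, with 70.8, 72.7 and 73.0 FPKM in conditioned libraries and 80.04, 86.8 and 84.2 FPKM in control libraries. Egr1 was called lower (log2 fold change -0.21, adjusted p = 0.0171 in limma), a call lost in other settings with adjusted p up to 0.0839. Vgll4 and Kctd11 followed for Fos, at 0.0645 and 0.0772. For Fosl2 the nearest were Vcl, H6pd and Acvr1b, with distances of 0.0645, 0.0673 and 0.0692, and Vcl, the focal adhesion protein vinculin, had 98.0 ± 1.58 FPKM in conditioned and 74.6 ± 3.59 FPKM in control cells. For Nr4a1 they were Col2a1, Fmod and Emp1 at 0.0850, 0.106 and 0.113. Fmod, a collagen-binding proteoglycan of tendon, had 102 ± 4.33 FPKM in conditioned and 140.4 ± 3.37 FPKM in control cells. Distances of this kind describe 6 libraries in 2 groups.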

How the data were processed

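Messenger RNA, purified on poly-T beads, was read in paired ends, per the labels' protocols. The authors deposited FPKM values per gene and library. CASAVA, HISAT2 2.0.5 and mm10 are named in the submitters' processing notes, with no role given. No source used here gives the counter, annotation release, strand setting or filters. Every FPKM value came out as whole fragments within 0.0001 fragment (24413 genes, 23561 of them with the exon length of GENCODE M21). The recovered fragments made up 98.9% to 100.01% of each library's divisor. For genes without a matching length, the shortest length that gave whole fragments was taken. Whole fragments are therefore no check there, and the count is uncertain and could be low by a whole factor. The fragments served for depth and for an alternative fit, in which voom called 649 genes higher and 479 lower.

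Groups came from sample titles, and 0 sample columns were left unused. Differences were fitted with limma 3.58.1 in R 4.3.3, with a trended, robust variance prior and no covariates, on log2(FPKM + 1) for genes averaging 1 FPKM or more. The fit was tested on simulated data with larger changes than those of Fos and Fosl2 and without a GC trend of libraries. That test does not cover changes as small as these. Single values were compared by exact permutation tests (scipy 1.17.1, Python 3.11.15). Alternatives changed the pseudocount, low filter, scaling, variance prior, count model, replicate block or GC and length trend (the last chosen after seeing the data), or left out 1 library. The text names the 10 factors, Nr4a3, up to 8 called genes of each list by size of change, the 3 most abundant genes of lists with fewer than 3 calls, and the 3 genes nearest to each called factor. Factors and lists were chosen with earlier results of these data known. Fragment counts of libraries in 1 group differed by more than sampling noise (chi-square over degrees of freedom 3.15 to 7.02). Protein sequences were not used here. Some genes that the naming rule selects are not reported here.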

Additional observations from a re-analysis of the deposited data

How the results depend on the processing

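Fosl2 and Nr4a1 kept direction and call in all 15 settings, Fosl2 between 0.36 and 0.42 and Nr4a1 between -0.56 and -0.50 (log2). Fos kept its value of -0.24 but lost its call with no low filter (adjusted p = 0.0869), plain eBayes (0.0696) and a replicate block (0.0517), so the factors called lower numbered 1 there; leaving out a library gave -0.29 to -0.20 and 1 to 2 factors lower. Nr4a2 gained a call with upper quartile scaling (-0.29), voom (-0.37) and the GC and length trend removed (-0.27). Without control replicate 1, Junb and Jund turned to -0.062 and -0.048; leaving out a library gave ranges of -0.062 to 0.15 and -0.048 to 0.27, of -7.72 to 14.1 FPKM for the JUN sum and of -0.18 to 1.21 percentage points for the share of Junb. The cause was not tested.

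No label states whether the replicate numbers pair the libraries. Deviations of same-numbered libraries correlated at -0.0948, -0.00803 and -0.0476, which shows no shared deviation but cannot show that they were unpaired by design. With the replicate block, the genes higher and lower numbered 259 and 131, other immediate early genes lower 4, upstream activators higher 0 and AP-1 targets lower 1. The genes lower numbered 165 with no low filter, 479 with voom and 476 with the GC and length trend removed. Leaving out a library gave 265 to 426 genes higher and 129 to 252 lower. With no low filter, 4 other immediate early genes, 1 AP-1 target and 0 activators were called (lower, lower and higher). Plain eBayes gave 1 AP-1 target lower and 0 activators higher. Voom gave 5 other immediate early genes higher, 2 activators higher and 1 lower, 4 AP-1 targets lower and 1 retinoid X receptor higher, as did the filter at 5 FPKM for that receptor list (1). The GC and length trend removed gave 5, 1 and 5 for other immediate early genes higher, activators lower and AP-1 targets lower, and upper quartile scaling gave 5 AP-1 targets lower. Leaving out a library gave 3 to 10 other immediate early genes lower, 0 to 1 activators higher and 0 to 2 AP-1 targets lower. Atf3 rests on few fragments (27 in conditioned and 50 in control libraries), fewer than Fosb (329 and 442). At the low FPKM of both genes, log2(FPKM + 1) understates changes.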
